A study of Mus musculus with 8 samples.

Results

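The Nr4a and Egr genes were followed as RNA readouts of antigen receptor signalling in activated CD8 T cells. Members were the probe sets whose platform annotation gives exactly 1 gene symbol and whose symbol is Nr4a1, Nr4a2, Nr4a3, Egr1, Egr2 or Egr3. All 6 genes were found, with 9 probe sets among 22626 non-control probe sets and among 12393 genes with a single symbol. Nr4a2, Nr4a3 and Egr2 each had 2 probe sets, and all 9 lay above the filter on low values, a mean of 6.87 on the log2 scale.

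The arrays held RNA from CD8 T cells of OT-1 mice, whose T cells carry 1 transgenic receptor for a peptide of ovalbumin. In both groups the T cells had been activated beforehand and were then kept for 4 h with peptide-loaded ID8 cells, a mouse ovarian cancer line, at 30 T cells per target, before magnetic separation. In one group the ID8 cells overexpressed PD-L1, which binds the inhibitory receptor PD-1 on T cells, and in the other they were depleted of it. T cells of 4 mice, named A to D, were divided between both targets, giving 4 arrays per group and 8 in all. There was no array of T cells without targets or without peptide, so all levels are levels after co-culture with loaded targets. How far they follow antigen contact or the earlier activation cannot be told apart. The labels give neither the age nor the sex of the mice, nor how PD-L1 was raised or removed, nor how many ID8 clones were used.

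When the T cell receptor binds its antigen, calcium and the ERK kinase cascade switch on a first wave of genes within minutes to hours, with no need for new protein. Nr4a1 (Nur77), Nr4a2 (Nurr1) and Nr4a3 (Nor1) are orphan nuclear receptors of that wave; Nur77 in particular is widely used as a reporter of how strongly the receptor signals, and the family is known for restraining effector functions in chronically stimulated T cells. Egr1, Egr2 and Egr3 are zinc finger transcription factors induced through ERK; Egr2 and Egr3 are known for damping T cell activation and for a part in anergy. PD-1 recruits phosphatases that counter signalling near the receptor, so these genes lie downstream of a step that PD-L1 can affect.

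The promoter sequences of the Nr4a genes are shown for the signal-responsive motifs they share. The sequences are those of RefSeq on GRCm38.p6, and windows of Nr4a1, Nr4a2, Nr4a3 and Egr2, 4 of the 6 genes, were searched. Member windows on the chromosome of Egr1 were left out of the search, so none of Egr1 could enter. No window of Egr3 was searched either. In the 250 bases before the annotated start, 6 motifs were searched on both strands: the half-site of the cAMP response element (CRE), TGACG, bound by CREB and ATF factors; the full element TGACGTCA; the AP-1 site TGANTCA; the CArG box, bound by serum response factor; the Egr site GCGNGGGCG; and the Nr4a response element AAAGGTCA. The full CRE contains the half-site on both strands. Capitals mark CRE half-sites and CArG boxes.

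The Nr4a1 window (chr15:101266596-101266845, plus strand) and the Nr4a2 window (chr2:57124004-57124253, minus strand) are printed whole, 5′ to 3′.
Nr4a1: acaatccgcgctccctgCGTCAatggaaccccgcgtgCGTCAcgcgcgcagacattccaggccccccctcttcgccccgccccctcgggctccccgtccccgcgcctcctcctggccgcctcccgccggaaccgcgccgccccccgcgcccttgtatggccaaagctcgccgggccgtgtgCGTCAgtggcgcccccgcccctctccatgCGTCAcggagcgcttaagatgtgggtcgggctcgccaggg
Nr4a2: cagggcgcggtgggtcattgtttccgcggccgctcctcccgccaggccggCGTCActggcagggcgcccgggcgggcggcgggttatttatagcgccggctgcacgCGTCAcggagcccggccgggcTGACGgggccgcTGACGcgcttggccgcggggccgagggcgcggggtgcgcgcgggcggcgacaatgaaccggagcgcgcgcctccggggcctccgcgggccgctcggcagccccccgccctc

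For Nr4a3 and for the overlapping windows of Egr2, only the stretches round the matches are printed (chr4:48045071-48045100, chr4:48045088-48045117 and chr4:48045146-48045175; chr10:67537746-67537775 and chr10:67537793-67537822). The upstream and middle stretches of Nr4a3 overlap and share a half-site, CGTCA.
Nr4a3 upstream: gggTGACGtagcgtcccatgtCGTCAcatt
Nr4a3 middle: atgtCGTCAcatTGACGtctcgcattccag
Nr4a3 downstream: ctgtggcataaaTGACGtgccgagagagcg
Egr2 upstream: aaattggccatgTGACGgcaaaagctgcca
Egr2 downstream: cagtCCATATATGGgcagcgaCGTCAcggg

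Each of the 3 Nr4a windows held 4 CRE half-sites. At least 1 was present in 17.7% of all 32817 windows of that length, and 4 or more in 0.137%. None of the 3 held a CArG box, which 1.47% of all windows had. Egr2 has 5 annotated windows, of which 3 overlap and hold the printed CArG box and 2 CRE half-sites; of the other two, one had another CArG box and one had no match to any of the 6 motifs. Nr4a1 and Nr4a2 each had 1 Egr site (4.7% of all windows), and no window of the 4 genes had an AP-1 site, a full CRE or the Nr4a element. These matches describe the letters of the windows; binding was not measured.

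The T cell identity of the samples was checked against markers, and target cell RNA was looked for. Of 9 CD8 T cell marker genes on the array, all 9 passed the filter, and their mean ran from 12.23 to 12.30 over the 8 arrays. Singly, 7 of the 9 passed the limma F test between mice, against 29.3% of all genes tested. Of 19 markers of ID8 cells (mesothelial and stromal-like genes), 10 passed; their mean differed between PD-L1-overexpressing and depleted targets by 0.73 for mouse A, 0.58 for mouse C and 0.63 for mouse D. For mouse B the difference was -0.98, so that this animal ran against the others. The same held across genes: over the 8003 genes tested, the differences between targets in mouse B correlated at -0.62, -0.60 and -0.51 with those in A, C and D, which correlated with each other at 0.49 to 0.58 (a description across genes). The labels were kept as given, and the direction of each mouse B difference between targets carries this limit. Over the groups the ID8 mean spanned 7.93 to 9.04 with PD-L1-overexpressing and 7.82 to 8.91 with PD-L1-depleted targets. Not each ID8 marker followed the mean. In mouse B, Cav1 read 7.37 with PD-L1-overexpressing and 7.35 with depleted targets, and Epcam 9.77 and 9.63. The rest of the 10 were lower there with PD-L1-overexpressing targets. Of 9 B cell markers only Ighm passed, of 9 macrophage and dendritic cell markers 3 (Csf1r, Cd68 and Flt3), and of 5 NK and CD4 T cell markers 2 (Klrc1 and Cd4); the defining Cd79a, Ms4a1, Lyz2, Itgam, Ncr1 and Foxp3 did not. In RNA of mixed cells, fewer cells of a type and less RNA per cell cannot be told apart. Because of mouse B, differences of the Nr4a and Egr genes between targets are given with and without it.

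The first comparison asked whether receptor signalling genes read lower after contact with targets rich in PD-L1. None of the 6 genes passed the test; 5 of 6 had a lower mean with PD-L1-overexpressing targets, as had 46.6% of all genes tested. The groups overlapped for all 9 probe sets; they did not for 0.450% of genes. Of all 8003 tested genes 0% were called higher and 0% lower by limma with the mouse as a block (0 genes each, 228 genes or 2.85% at an unadjusted p under 0.05, smallest adjusted p 0.9995). Differences below are log2 levels with PD-L1-overexpressing minus PD-L1-depleted targets. Among the genes tested, the median difference was 0.0033 and 95% of the absolute differences were at or below 0.11.

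Nr4a1, the Nur77 gene, read 12.61, 12.59, 12.58 and 12.47 in mice A to D with PD-L1-overexpressing targets, and 12.61, 12.67, 12.73 and 12.52 with PD-L1-depleted targets. It was lower with PD-L1-overexpressing targets in each animal, though by only 0.0030 in mouse A, and the ranges of the groups overlapped. The group means were 12.56 ± 0.061 and 12.63 ± 0.088 (SD, n = 4 each). The difference was -0.068 (SE 0.027, 95% interval -0.13 to -0.0076), which is 0.954-fold (limma unadjusted p = 0.0312, adjusted p = 0.9995). Without mouse B it was -0.066 (adjusted p = 0.336), and without mouse C -0.041. In mouse B, where the ID8 marker mean was lower with PD-L1-overexpressing targets, Nr4a1 differed by -0.074. In A, C and D, where that mean was higher, Nr4a1 differed by -0.0030, -0.15 and -0.045. Whether target cell RNA had a part in these differences was not tested.

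Nr4a2, which like Nr4a1 acts without a known ligand, read 10.26, 10.35, 10.56 and 10.22 in mice A to D with PD-L1-overexpressing targets and 10.30, 10.40, 10.58 and 10.25 with PD-L1-depleted targets in the brighter probe set (1450750_a_at). The arrays paired closely by animal and the groups overlapped. The difference was -0.037 (SE 0.030, 95% interval -0.10 to 0.031), with single animals between -0.047 and -0.026. Without mouse B it was -0.033 (adjusted p = 0.760). The second probe set (1450749_a_at) differed by -0.025 (SE 0.037) and was lower in 2 of 4 mice.

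Nr4a3 differed by -0.087 (SE 0.045, 95% interval -0.19 to 0.014, adjusted p = 0.9995) in its brighter probe set (1421080_at), and by -0.073 (adjusted p = 0.605) without mouse B. It read 8.79, 8.70, 8.82 and 8.68 in mice A to D with PD-L1-overexpressing targets and 8.82, 8.84, 8.83 and 8.85 with PD-L1-depleted targets. The PD-L1-depleted arrays lay within an SD of 0.012, against 0.068 for the other group, and the array of mouse C with PD-L1-overexpressing targets overlapped them. The other Nr4a3 probe set (1421079_at) went its own way. It differed by 0.020 (SE 0.065), from -0.14 in mouse A to 0.22 in mouse B, so the reading of Nr4a3 rests on which probe set is used.

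In the probe set that stood for the gene, all 3 Nr4a genes were lower in 4 of 4 mice, against 4.69% of all tested genes lower in all 4 and 5.84% higher in all 4. This count takes in mouse B as labelled. In mice A, C and D alone, the 3 Nr4a genes and Egr3 were lower in each animal, against 18.1% of genes lower and 14.8% higher in all 3. The count does not extend to the second probe sets of Nr4a2 and Nr4a3, each lower in 2 of 4 mice. The 3 genes share the same 8 arrays and are not independent of each other.

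**Figure D1:**
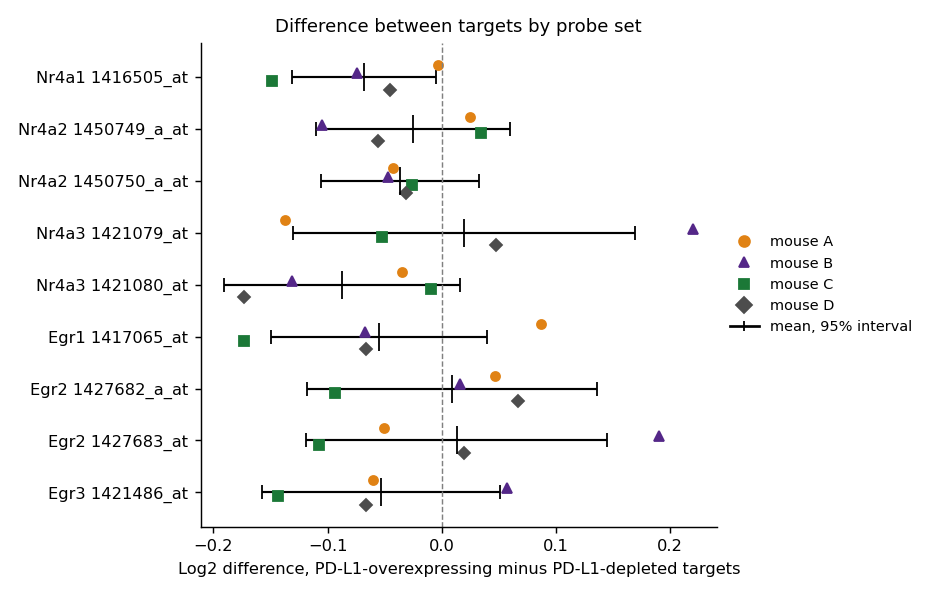
Log2 level with PD-L1-overexpressing minus that with PD-L1-depleted targets (x axis) for each of the 9 probe sets (y axis); coloured symbols are the 4 mice, the black tick and bar the mean and its 95% interval from limma. The intervals of 8 probe sets span 0 and that of Nr4a1 ends just below it, and mouse B lies farthest to the right for Nr4a3 1421079_at and Egr2 1427683_at.

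Egr1, a zinc finger factor induced through ERK and serum response factor, read 11.39, 11.69, 11.35 and 11.28 in mice A to D with PD-L1-overexpressing targets and 11.30, 11.76, 11.52 and 11.34 with PD-L1-depleted targets. Only mouse A had the higher level with PD-L1-overexpressing targets. The difference was -0.055 (SE 0.039, 95% interval -0.14 to 0.034), and -0.051 (adjusted p = 0.658) without mouse B. It moved more with other animals, to -0.10 without mouse A and -0.015 without mouse C. Mice A, C and D, alike in the direction of their ID8 marker mean, differed in Egr1 by 0.087, -0.17 and -0.066.

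Egr2, a restraint on T cell activation, differed by 0.013 (SE 0.057, 95% interval -0.12 to 0.14) in the brighter probe set (1427683_at), with 2 mice higher and 2 lower. In this probe set the direction came from mouse B, at 0.19, and without that animal the difference was -0.046 (SE 0.054). The second Egr2 probe set (1427682_a_at) differed by 0.0090 (SE 0.055). There the direction did not come from mouse B alone. It was higher in mice A (0.047), B (0.016) and D (0.067) and lower in C (-0.093).

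Egr3, the partner of Egr2 in anergy, read 8.82, 8.86, 8.85 and 8.83 with PD-L1-overexpressing targets and 8.88, 8.80, 8.996 and 8.90 with PD-L1-depleted targets. Only in mouse B was it higher with PD-L1-overexpressing targets. The difference was -0.053 (SE 0.045, 95% interval -0.16 to 0.049), and -0.090 (SE 0.047, adjusted p = 0.455) without mouse B. Without mouse C it was -0.023.

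Without mouse B, limma called 152 genes higher (1.90%) and 24 lower (0.300%) with PD-L1-overexpressing targets, and none of the 6 genes was among them (adjusted p from 0.336 to 0.789). Across the 6 genes the 95% intervals with all mice reached from -0.19 to 0.14, or from 0.877-fold to 1.10-fold.

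**Figure D2:**
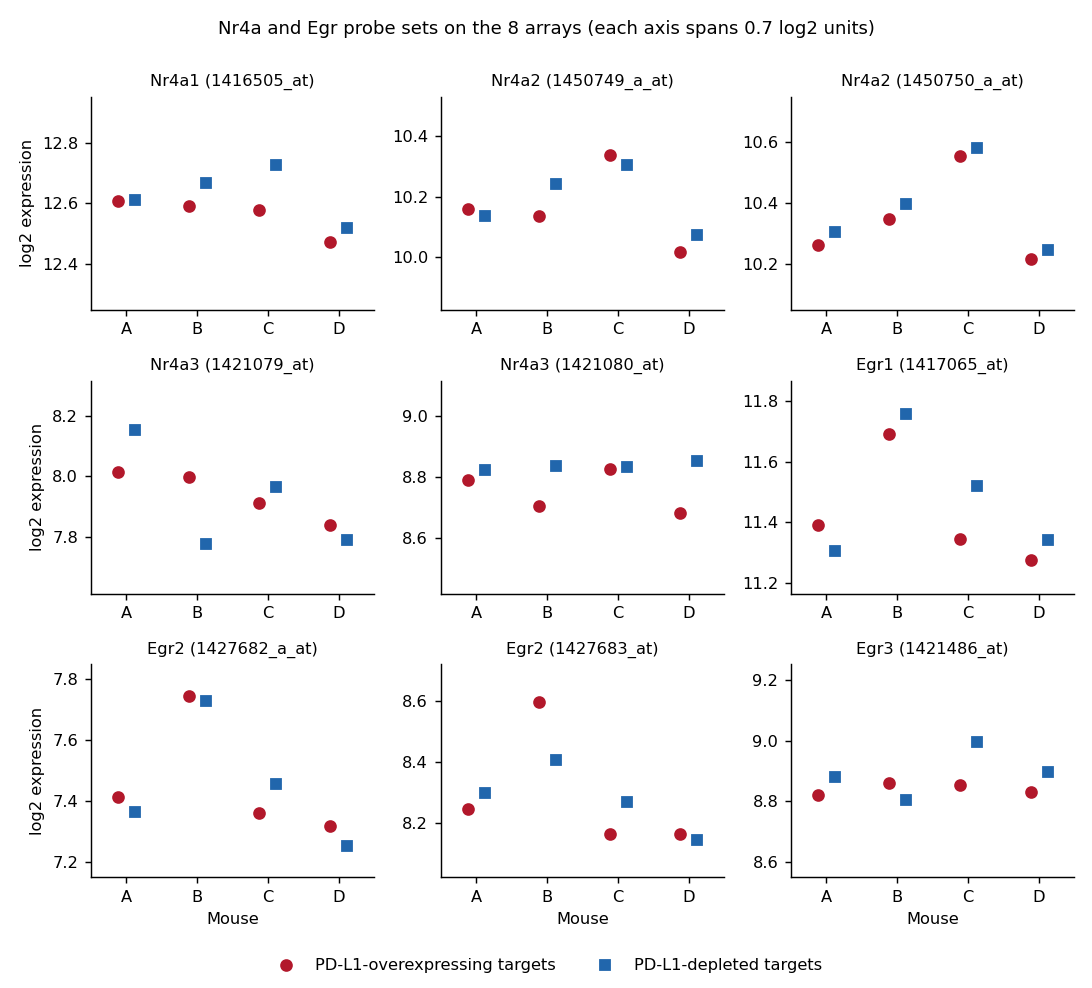
Log2 expression (y axes, each spanning 0.7 log2 units) of the 9 probe sets on the 8 arrays by mouse (x axes); red circles are PD-L1-overexpressing targets and blue squares PD-L1-depleted ones, 1 array each. Both arrays of mouse B are the highest for Egr1 and for both Egr2 probe sets, and both arrays of mouse C for both Nr4a2 probe sets.

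The 4 animals were then compared, with the target as a covariate. Egr1 and Egr2 were highest in mouse B and Nr4a2 in mouse C, while Nr4a3 and Egr3 were called in no mouse. No gene of the 6 had both arrays of mouse C below the other 6, as 9.93% of all genes did. Both arrays of mouse D lay below the other 6 for Nr4a1, for both Nr4a2 probe sets and for the dimmer Egr2 probe set (1427682_a_at), as for 6.16% of genes. By the limma F test over the 4 mice, Egr1 (adjusted p = 0.00228), Nr4a2 (0.00185), Egr2 (0.0373) and Nr4a1 (0.0404) passed, 4 of 6 genes against 29.3% of all genes tested. Nr4a3 and Egr3 did not (adjusted p = 0.774 and 0.618). Each animal has 1 array per target, and these p-values compare differences between animals with the scatter left once mouse and target are fitted. That scatter includes how far the animals disagree in their difference between targets, as mouse B did across genes. Arrays of 1 animal share its T cells, so no repeat of an animal enters it. What differed between the animals or their cultures is not in the labels.

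For Egr1, the mean of the arrays was 11.72 in mouse B, 11.43 in C, 11.35 in A and 11.31 in D. Both arrays of mouse B lay above the other 6, as for 8.28% of all genes. Egr1 was 1.28-fold higher in mouse B than in the mean of the others (0.36 on the log2 scale, SE 0.046, limma adjusted p = 0.00169), a call made for 6.30% of genes in that direction. In the order of levels, B differed from its neighbour C (adjusted p = 0.0145, with 8.33% of genes called in that pair), while C from A and A from D did not pass (0.292 and 0.651). Egr1 was also called lower in mice A (-0.14, adjusted p = 0.0442; 12.7% of genes) and D (-0.19, adjusted p = 0.0327; 4.09% of genes) against the rest. Both calls were lost without mouse B (-0.023, adjusted p = 0.681, and -0.082, adjusted p = 0.177), as was the F test (adjusted p = 0.0984).

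Egr2 read 8.60 and 8.41 in mouse B (targets overexpressing and depleted of PD-L1, in that order), against 8.25 and 8.30 in A, 8.16 and 8.27 in C and 8.16 and 8.14 in D. Mouse B stood above the other 6 arrays here too. The difference to the mean of the others was 0.29 (SE 0.066, 1.22-fold, limma adjusted p = 0.0278). The second probe set read 7.75 and 7.73 in mouse B and at most 7.45 elsewhere, and gave 0.38 (SE 0.064, adjusted p = 0.0136 in a fit over all probe sets). Of the neighbours in the order B, A, C, D, none differed past the threshold (adjusted p = 0.0722, 0.649 and 0.789); only the ends, B and D, did (0.0493; 3.95% of genes called in that pair). Without mouse D the difference of mouse B was 0.26 and did not pass (adjusted p = 0.0829). The F test was also lost on leaving out mouse A (adjusted p = 0.0761), B (0.323) or D (0.0903).

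Egr3 stayed between 8.80 and 8.996 on all 8 arrays and differed in mouse B by -0.046 (SE 0.052), which was not called. Nr4a1 differed there by 0.043 (SE 0.031), Nr4a2 by 0.011 (SE 0.035) and Nr4a3 by -0.030 (SE 0.052), none of them called. Whether Egr1 or Egr2 differed from these genes in its response to the animal was not tested.

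Nr4a2 had its highest level in mouse C, with 10.56 and 10.58 on its arrays against 10.22 to 10.40 on the other 6. The mean level was 1.21-fold that of the other mice (0.27, SE 0.035, limma adjusted p = 0.00186), a call made upward for 3.09% of genes, and both arrays lay above all others, as for 4.99% of genes. The second probe set read 10.34 and 10.30 against 10.02 to 10.24, and gave 0.19 (SE 0.043, adjusted p = 0.0390 in the fit over all probe sets). In the order C, B, A, D, mouse C differed from B (adjusted p = 0.0236), and B from A and A from D did not pass (0.171 and 0.416). Between these pairs 8.33%, 21.6% and 25.5% of all genes were called. Nr4a2 was lower in mouse A (-0.11, limma adjusted p = 0.0430; 12.7% of genes) and mouse D (-0.18, adjusted p = 0.0152; 4.09% of genes) than in the rest. The second probe set gave -0.038 (adjusted p = 0.556) in A and -0.17 (0.0523) in D, neither called. Without mouse C neither call held (-0.019, adjusted p = 0.764, and -0.096, adjusted p = 0.153), nor did the F test (adjusted p = 0.116).

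Nr4a1 moved least of the 4 genes that passed, over a range of 0.16 between the highest and the lowest mouse. It was lower in mouse D than in the others (-0.13, SE 0.031, adjusted p = 0.0284; both arrays below the other 6, as for 6.16% of genes). The call was lost without mouse A (-0.14, adjusted p = 0.0532) and with eBayes without a trend (adjusted p = 0.136), and no pair of mice differed past the threshold (adjusted p from 0.0555 to 0.741), where the pairs A with C and C with D had 25.2% and 3.22% of all genes called. The F test of Nr4a1 was lost without mouse A (adjusted p = 0.0519) and without mouse D (0.699). Nr4a3 spanned 0.063 between mice in its brighter probe set; in the second it was highest in mouse A, at 8.01 and 8.15, and the F test did not pass (adjusted p = 0.187).

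For Nr4a2, in the brighter probe set, 97.9% of the sum of squares over the 8 arrays lay between mice and 2.00% between targets, and for Egr1 90.1% and 2.58%. Egr2 had 84.7% and 0.208%, and Nr4a1 66.2% and 21.0%. Nr4a3 depended on the probe set, with 18.1% between mice and 51.4% between targets in the brighter one and 67.9% and 0.686% in the second, and Egr3 had 37.2% and 22.3%. The median over all tested genes was 73.8% and 2.83%.

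**Figure D3:**
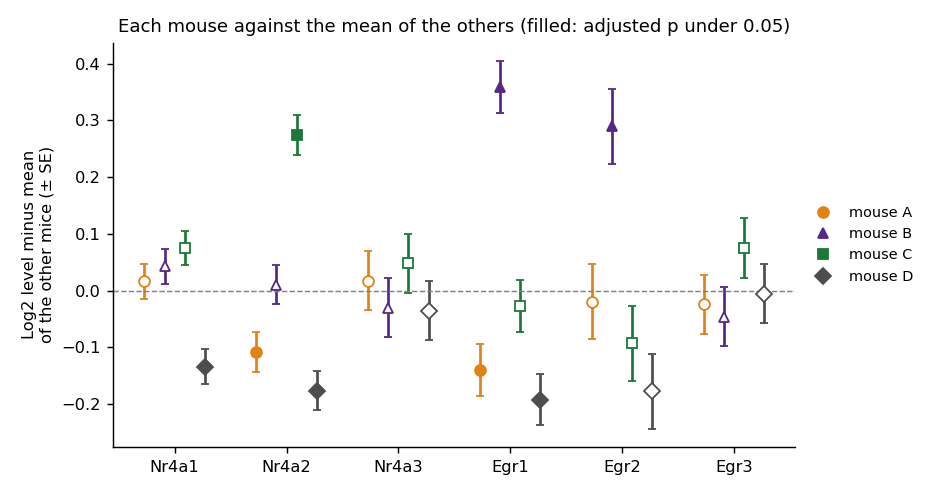
Log2 level of each mouse minus the mean of the other 3 (y axis, bars are ± SE from limma) for the 6 genes (x axis), with the probe set that stands for the gene; filled symbols had an adjusted p under 0.05. Mouse B is filled and high for Egr1 and Egr2, mouse C for Nr4a2, and no mouse is filled for Nr4a3 or Egr3.

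Other values of mouse B were set beside the Egr1 and Egr2 results. Its ID8 marker means were 7.93 and 8.91, inside the 7.82 to 9.04 of the other mice, and its CD8 T cell marker means were 12.26 and 12.23 against 12.24 to 12.30. Singly, 2 of the 9 CD8 markers were called higher in mouse B and 1 lower, against 6.30% and 2.96% of all genes. Macrophage and dendritic cell markers averaged 7.97 and 7.87 against 7.84 to 8.21. Ighm read 10.93 and 10.79 against 10.21 to 11.07. The array medians of mouse B, 7.555 and 7.552, were the lowest of the 8, with 7.564 to 7.602 elsewhere. As a sign of RNA quality, the 3′ minus 5′ value of the Actb control probe sets was 0.20 and 0.24 in mouse B and 0.17 to 0.23 elsewhere, and that of Gapdh was -0.087 and -0.090 against -0.11 to -0.081. Their part in the level of Egr1 and Egr2 was not tested.

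Egr1 and Egr2 had company among the other immediate early genes in mouse B. Of 29 tested genes of that kind, 15 were called higher and 1 lower there, with a median of 0.20, against 6.30% and 2.96% of all genes and a median of -0.0065. The list was written with earlier results of these arrays known, including the high Fos and Jun of this animal. Fos and Jun, the subunits of AP-1, were higher by 1.21 (SE 0.057) and 1.01 (SE 0.070). Btg2, an antiproliferative gene, was higher by 0.24 (SE 0.031), but was also called higher in C (0.19) and D (0.14). Mouse A was the one that stood apart for Btg2, at -0.57 against the others. Ier3, a survival gene, was the one called lower in mouse B (-0.15, SE 0.031). In mouse A 5 of the 29 were called higher and 9 lower, in C 6 and 4, and in D 1 and 8, against 18.1% and 12.7%, 3.09% and 5.35%, and 4.56% and 4.09% of all genes. Egr4, a further Egr family gene that is no member here, differed by 0.039 (SE 0.067) in mouse B and was not called.

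**Figure D4:**
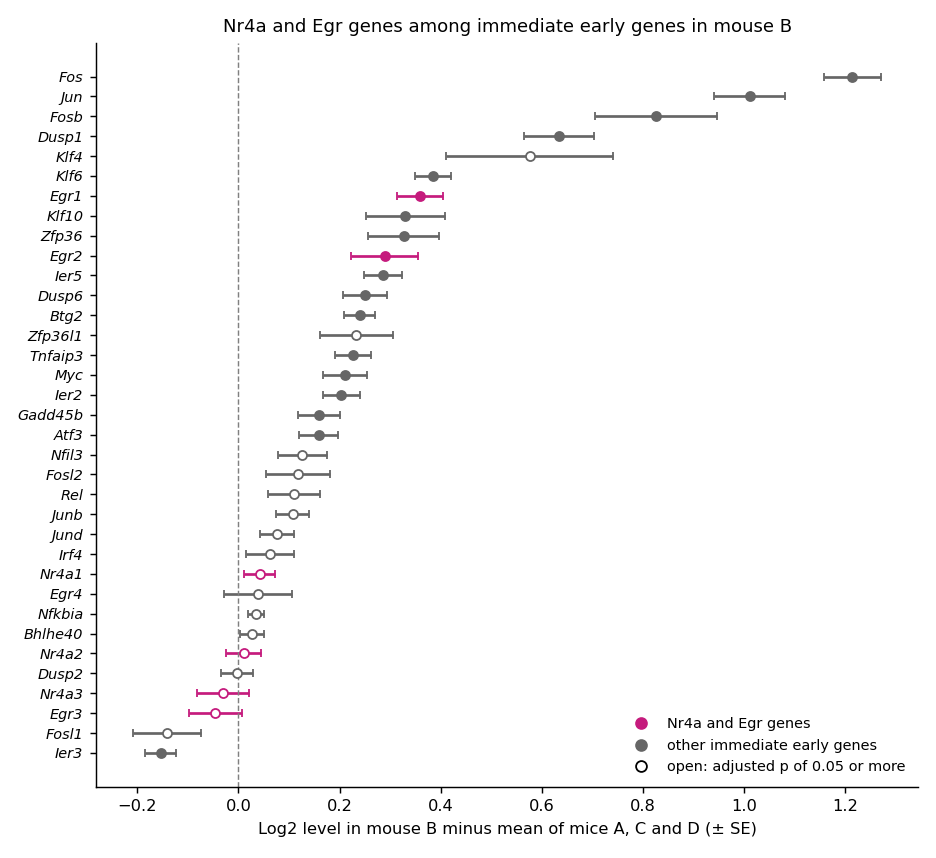
Log2 level in mouse B minus the mean of mice A, C and D (x axis, bars are ± SE from limma) for the 6 Nr4a and Egr genes (pink) and 29 other immediate early genes (grey), sorted by the difference; open symbols had an adjusted p of 0.05 or more. Fos and Jun lie farthest to the right at 1.21 and 1.01, Egr1 and Egr2 at 0.36 and 0.29, and the Nr4a genes and Egr3 between -0.046 and 0.043.

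Between targets, 0 of these 29 genes were called in either direction; 17 were lower and 12 higher in the mean, with a median of -0.0050. Fos, at -0.17 (SE 0.049), and Dusp1, a MAP kinase phosphatase, at -0.18 (SE 0.060), had the smallest p, and both were lower in 3 of 4 mice. Without mouse B they differed by -0.14 (limma adjusted p = 0.166) and -0.11 (0.293). Klf4, a Krüppel-like factor gene, was then called higher (0.23, SE 0.055, adjusted p = 0.0273), 1 of 29 genes against 1.90% of all genes. With all 4 mice Klf4 differed by 0.0011 (SE 0.14) and was lower in 1 of them.

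Routes upstream of the Nr4a and Egr genes were described in the same way. Of 14 tested genes of the ERK, SRF and CREB route, 2 (14.3%, against 29.3% of all genes) passed the F test between mice, Nras (adjusted p = 0.00398) and Rasgrp1 (0.00641), which loads Ras with GTP in T cells. Map2k1, a kinase that activates ERK, came next by p and did not pass (0.0556). Srf itself, the factor that binds CArG boxes, differed by -0.024 (SE 0.064) in mouse B. In mouse A 4 of the 14 were called higher and 0 lower (18.1% and 12.7% of all genes), and in mouse B 0 either way (6.30% and 2.96%). Between targets 0 were called, with and without mouse B, with Map2k2 at 0.042 and Elk3 at -0.043 having the smallest p.

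Of 12 tested genes of the calcineurin, NFAT and MEF2 route, 3 (25%, against 29.3% of all genes) passed between mice: Hdac7, a repressor of Nr4a1 that is exported on receptor signalling, Nfat5 and the calcineurin subunit gene Ppp3r1. All 3 were called higher in mouse A, a call made for 18.1% of all genes. Between targets 0 were called, with and without mouse B; the calcineurin catalytic genes Ppp3ca and Ppp3cb differed by 0.092 (SE 0.036) and -0.064 (SE 0.037), each in the same direction in 4 of 4 mice. Of 6 tested corepressors and partner receptors, Tle3 alone (16.7%, against 29.3% of all genes) passed between mice, highest in mouse A at 10.68 and lowest in C at 10.04. Nab1 and Nab2, which bind Egr proteins and repress their targets, did not pass (adjusted p = 0.0558 and 0.682), nor did Rxrb (0.0658), a retinoid receptor gene. Between targets 0 of the 6 were called, with and without mouse B; Rxrb and Tle3 had the smallest p, with differences of 0.032 and 0.035 (0.058 and 0.033 without mouse B).

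Genes reported as targets of Egr2 or Egr3 in T cells mostly differed between mice, and not in 1 pattern. Of 17 tested, 13 passed the F test, against 29.3% of all genes. In mouse B, where Egr2 was highest, 4 were called higher and 2 lower (6.30% and 2.96% of all genes): Ndrg1 (0.18, SE 0.028), an anergy factor, Dgka (0.26, SE 0.037), which removes diacylglycerol, and the inhibitors Socs3 (0.70, SE 0.091) and Cdkn1b (0.26, SE 0.040) were higher, while Crtam (-0.34, SE 0.044) and Nrp1 (-0.23, SE 0.053) were lower. In mouse D 1 was called higher and 8 lower (4.56% and 4.09% of all genes), in A 6 and 4 (18.1% and 12.7%) and in C 4 and 4 (3.09% and 5.35%). The 3 with the smallest F test p had their highest level in other animals. Tnfrsf9, the gene of the costimulator 4-1BB, was highest in mouse A (13.83), as was the cell cycle inhibitor gene Cdkn1a (13.17), and Crtam, an adhesion receptor gene, was highest in C (9.23). Between targets 0 of 17 were called, and the median was -0.0049, with Nrp1 (-0.077) and Itch (0.064), a ubiquitin ligase gene, having the smallest p. Without mouse B these differed by -0.12 and 0.085, neither called. There 1 of the 17 was called higher, Rnf128 (0.80, SE 0.068, limma adjusted p = 1.5e-07), the gene of the ubiquitin ligase GRAIL. With all 4 mice Rnf128 differed by 0.37 (SE 0.26), was lower in 1 of them and was not called. The ID8 marker mean too ran the other way in mouse B, and whether Rnf128 read target cell RNA was not tested.

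Of the dysfunction genes reported with Nr4a factors in T cells, 8 were tested and all 8 passed between mice, against 29.3% of all genes. In mouse C, where Nr4a2 was highest, 2 were called higher, Pdcd1 (0.40) and Havcr2 (0.43), which encode PD-1 and TIM-3, and 1 lower, Ctla4 (-0.088), where 3.09% and 5.35% of all genes were called. In mouse B 3 were called higher and 1 lower (6.30% and 2.96% of all genes), and in D 2 and 2 (4.56% and 4.09%). Mouse A had 5 of the 8 called lower, among them Havcr2 (-0.78), the signalling lymphocyte receptor gene Cd244a (-0.92) and Cd160 (-0.65), and 1 higher, Lag3 (12.7% and 18.1% of all genes). Tox, the regulator with which Nr4a factors are best known to act, had a mean of 6.86, just under the filter, and was not tested. Between targets 0 of the 8 were called, with and without mouse B; Havcr2 (0.078) and Cd160 (0.084) had the smallest p, and differed by 0.044 and 0.053 without that animal.

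The genes most like each member over the 8 arrays were found by Pearson r among all tested genes. As arrays of 1 animal share their T cells, r mainly follows the animals where these differ, and it is a description over arrays that are not independent. For Egr2 the first was Ndrg1 (r = 0.941), itself on the list of reported Egr2 and Egr3 targets, then Gng12 (0.936) and Pwwp3a (0.932). Egr1 was most like Pim2 (0.967), a survival kinase gene, Nrm (0.953) and Rhoh (0.947), which encodes a GTPase of T cell receptor signalling. Nr4a2 was closest to Osgin2 (0.948), Arf2 (0.945) and Pkdcc (0.928), and Nr4a1 to Sh2b3 (0.908), a gene of the adaptor LNK, Spag4 (0.894) and Ddx20 (0.887). Nr4a3 was most like Creb3l1 (0.962), Spon2 (0.914) and Itga2b (0.888), and Egr3 was most like Cops7b (0.979), Nmur2 (0.946) and Gpr162 (0.938). For the genes most like these last members, r was 0.902 to 0.985 once each animal's mean was subtracted. That leaves only the difference between targets in each of the 4 mice. These genes were picked for a high r, and only 18.1% and 37.2% of the sum of squares of Nr4a3 and Egr3 lay between mice. A high r within animals therefore adds no separate evidence. Nmur2, Spon2 and Spag4 had means of 6.90, 6.91 and 6.96, just above the filter.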

How the data were processed

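The deposited values are on a log2 scale, as their range of 3.60 to 15.24 shows, and how the authors summarised and normalised probes is not given in the sources used here. Per the labels' protocols, total RNA was biotin-labelled for a 3′ expression array. Array depth has no count; precision is limited by having 4 arrays a group, and distributions nearly equal as deposited could hide a change shared by most genes. The table held 0 columns of other samples.

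Control probe sets (64) were left out, and each gene was represented by its single-symbol probe set with the highest mean. The 8003 genes with a mean of at least 6.87, the 40th percentile of probe set means, entered limma 3.58.1 under R 4.3.3 (lmFit, eBayes with a trend, two-sided, Benjamini-Hochberg over all tested genes, threshold 0.05). Targets were compared with the mouse as a fixed block, and mice by an F test, each mouse against the others and in pairs, with the target as covariate. Tests of mouse pairs were added after the data were examined. A fit over all 13576 probe sets above the filter gave the second probe sets. The pairing comes from the series design and titles; after group means were subtracted, both arrays of an animal correlated over genes at 0.82, 0.16, 0.61 and 0.64 in mice A to D. The steps were tested on simulated data. Members, lists (6 of pathways, 5 of markers) and motifs were chosen with earlier results of these data known. Genes named outside the members were the 3 most like each member, the 2 of each pathway list with the smallest p between targets and the 3 with the smallest F test p; Ier3, Egr4, Srf, Nab2, Tox, Pdcd1, Ctla4, Lag3, Klf4, Rnf128 and the Egr2 and Egr3 targets called in mouse B were named after their values were seen. Alternatives were no block or a random block for the mouse, quantile normalisation, median centring, no or a higher filter, averaged probe sets per gene, every probe set, a robust eBayes or one with no trend, array weights, a threshold of 0.1 and leaving out each mouse.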

Additional observations from a re-analysis of the deposited data

How the results depend on the processing

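Between targets no alternative called any of the 6 genes. The fit with no replicate block for the paired arrays called 0 genes, as did every alternative with all 4 mice; leaving out each mouse gave 0 to 176, the 176 without mouse B. Of the differences of the 6 genes between targets, only Egr2 turned, to -0.0073 with array weights, and to between -0.046 and 0.053 on leaving out each mouse. Genes called between mice numbered 576 (without mouse A) to 3555 (without mouse B). The range between mice stayed at 0.16 for Nr4a1 and 0.35 for Egr2 with no filter, all probe sets or eBayes without a trend, where the call was lost (adjusted p from 0.0509 to 0.163 and from 0.0506 to 0.0576). On leaving out each mouse the range ran from 0.044 to 0.16 for Nr4a1, 0.14 to 0.34 for Nr4a2, 0.12 to 0.41 for Egr1 and 0.12 to 0.35 for Egr2. Egr1 higher in mouse B and Nr4a2 higher in mouse C kept their call in every alternative run. Calls of Nr4a2 and Egr1 lower in mouse A were lost with median centring, no filter, all probe sets and eBayes without a trend (adjusted p from 0.0518 to 0.0639 and from 0.0517 to 0.106), the first also with averaged probe sets (0.130), and that of Egr1 in mouse D with all probe sets (0.0532) and without a trend (0.112). Under quantile normalisation the uncalled differences of Nr4a2 in mouse B and Egr1 in mouse C turned to -0.013 and 0.014. Differences that turned on leaving out each mouse, none called in the main setting, ran from -0.032 to 0.047 (Nr4a1, mouse A), -0.0025 to 0.076 (Nr4a1, B), -0.054 to 0.11 (Nr4a2, B), -0.10 to 0.10 (Egr1, C), -0.088 to 0.087 (Egr2, A), -0.17 to 0.0041 (Egr2, C), -0.044 to 0.0012 (Egr3, A) and -0.023 to 0.022 (Egr3, D). Leaving out a mouse also leaves fewer arrays; the cause of the other changes was not tested. The filter at the 60th percentile removed Egr2.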

Other observations

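Within animals, pairs of these genes moved together differently than over all arrays, as a description of 8 arrays from 4 mice. Egr1 and Egr2, both high in mouse B, had a Pearson r of 0.823 over the arrays and 0.0035 once each animal's mean was subtracted, which leaves only the difference between targets in each mouse. Nr4a1 and Egr1 went the other way, with 0.575 over the arrays and 0.901 within animals. Nr4a3 and Egr2 had -0.300 and -0.516. These r used the probe set that stood for the gene, and within animals each rests on 4 differences between targets. In mice A to D the second Egr2 probe set differed by 0.047, 0.016, -0.093 and 0.067 (brighter -0.050, 0.19, -0.11 and 0.020). For Nr4a3 the second gave -0.14, 0.22, -0.052 and 0.047 (brighter -0.035, -0.13, -0.0097 and -0.17). The r of the second probe sets with other genes was not computed, so these values hold for the brighter probe sets only.

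The 2 probe sets of a gene tracked each other for Nr4a2 (r = 0.938 over the 8 arrays) and Egr2 (0.919), and not for Nr4a3 (-0.057). The second Nr4a3 probe set ran from 7.78 to 8.15 over the arrays and the first from 8.68 to 8.85.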
